A study of Saccharomyces cerevisiae with 8 samples.

Results

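Aminoacyl-tRNA synthetases attach each amino acid to its tRNA, and the charged tRNAs supply the ribosome. Budding yeast makes separate nuclear-encoded enzymes for the cytosol and for mitochondria for most amino acids, while some genes yield both forms from alternative starts. ARC1 encodes a tRNA-binding cofactor that holds the methionine and glutamate enzymes, MES1 and GUS1, in a complex. The 32 genes described here were taken by name from a list of enzyme genes and are part of 6002 nuclear protein-coding genes. They are 17 cytosolic enzyme genes, 14 mitochondrial enzyme genes and ARC1. GRS1 and ALA1, which also serve mitochondria, are counted as cytosolic.

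The counted items are tags, each a sequenced 5′ end of polyadenylated RNA mapped to a single base of either strand in the yeast genome build R64 (sacCer3). A gene's 5′ region reached from 400 nt upstream of the start codon, or from the end of a nearer coding region on the same strand, to 50 nt inside the coding region. Positions are given as the distance in nt before the first base of the start codon. In each molecule only the first base is counted, so tag levels were compared between genes without a correction for length. Levels are CPM, tags per 1000000 tags of the library. The 32 genes held 247521 tags at 2683 positions, none of which shared its first 42 bases with another place in the genome.

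RNA came from strain BY4741 (Mat a; his3delta1 leu2delta0 ura3delta0 met15delta0), grown to mid-log phase at 30 °C in rich glucose medium, and all libraries share this genotype. Free phosphates were removed from uncapped ends, and the RNA of each of 2 cultures was divided into 4 aliquots. They were given Decapping Pyrophosphohydrolase, Cap-Clip acid pyrophosphatase, TAP (Tobacco Acid Pyrophosphatase) or no enzyme. Each of these enzymes turns a capped end into one that can be ligated, so the untreated aliquot measures ends that were ligated without decapping. The study asked how such enzymes compare in mapping transcription start sites.

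The libraries held 1789278 and 3479399 tags with Decapping Pyrophosphohydrolase, 1268757 and 8475181 with Cap-Clip, 10739034 and 1747139 with TAP, and 736236 and 80721 with no enzyme, for replicates 1 and 2. The no-enzyme libraries stand apart from each other. The share of their tags in 5′ regions was 14.4% in replicate 1 and 73.0% in replicate 2, against 90.1% to 92.6% in the 6 enzyme-treated libraries. The 32 genes received 9530 and 20332 tags in their 5′ regions with Decapping Pyrophosphohydrolase, 11115 and 78141 with Cap-Clip, 110827 and 16536 with TAP, but 714 and 326 with no enzyme. Genes of MATa cells averaged 149 to 3138 CPM, 3 genes of the opposite mating type stayed at or below 1.92 CPM, and 3 genes deleted in the strain had 1 tag over the 8 libraries.

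Most synthetase genes start at several positions, and the sequences below show the most used one of 8 members that recur in the results. Each line gives 30 bases of the gene strand with the R64 coordinates and strand. The capitals are the base before the first transcribed base and that first base itself.
ARC1, 23 nt before the start codon, chrVII:307395-307424 (+): cccaattgaataagaaagTAtaatatagag
TYS1, 32 nt, chrVII:867542-867571 (-): ttgtcaaaaagagattagCAtccataaccg
GUS1, 15 nt, chrVII:38989-39018 (+): ttcaaaggttaaggaaagCAtagaagggat
THS1, 43 nt, chrIX:212437-212466 (+): atctgaaagattacaggtTAacgaaaaatt
GRS1, 67 nt, chrII:483424-483453 (-): ttgattttcaagaaaaatTGtcgttcttca
ALA1, 106 nt, chrXV:949205-949234 (-): atagaattacaaaaaaggCGtgcttccaac
MSK1, 4 nt, chrXIV:488363-488392 (+): ggtgttatgttacatgatTGccgatgaatg
GRS2, 3 nt, chrXVI:703963-703992 (-): ttgaaagacatatcacatCAacatgccgtt
All 8 follow the pyrimidine-purine step that yeast start sites usually have. The most used position had this step in 32 of 32 members, with A as the first base in 27 and G in 5.

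The sequences in the next group begin with T or have T as their second base, and they are 5 of the sites that were higher with Decapping Pyrophosphohydrolase, described further on. Here the capitals are the base before the first base, the first base and the second base.
ARC1, 12 nt, chrVII:307406-307435 (+): aagaaagtataatatagaGTTtcaagagtc
KRS1, 12 nt, chrIV:525409-525438 (+): cgagaaatccgtaataaaCTTcaatagcat
THS1, 34 nt, chrIX:212446-212475 (+): attacaggttaacgaaaaATTaacagctaa
THS1, 35 nt, chrIX:212445-212474 (+): gattacaggttaacgaaaAATtaacagcta
DPS1, 9 nt, chrXII:111574-111603 (-): taaaagaaaaaaagaaacATTttacgtgat
None of these 5 positions follows a pyrimidine-purine step.

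The 5′ regions of ARC1 and of the cytosolic enzyme genes other than GRS2 held far more tags than those of the mitochondrial enzyme genes. ARC1 had 779 and 936 CPM with Decapping Pyrophosphohydrolase, 1035 and 1169 CPM with Cap-Clip, 1187 and 1158 CPM with TAP, and 95.1 and 669 CPM with no enzyme. Its mean over the 6 enzyme-treated libraries was 1044 ± 162 CPM (SD, n = 6), rank 166 among the 6002 genes. GRS1, the glycine enzyme, had 516 and 594 CPM with Decapping Pyrophosphohydrolase, 1166 and 1213 CPM with Cap-Clip, 1219 and 1090 CPM with TAP, and 144 and 384 CPM with no enzyme. The Decapping Pyrophosphohydrolase values of GRS1 lay below all 4 values of the other enzymes. THS1, the threonine enzyme, averaged 819 ± 274 CPM and SES1, the serine enzyme, 696 ± 211 CPM (SD, n = 6 each). The means of ARC1, GRS1, THS1 and SES1 lie within their SDs of the next one. These SDs include differences between the enzymes, and the order of neighbours in this top group was not tested.

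GUS1 (glutamate), DPS1 (aspartate), KRS1 (lysine), DED81 (asparagine), WRS1 (tryptophan) and TYS1 (tyrosine) averaged between 427 and 613 CPM. FRS1 and FRS2 encode the 2 subunits of the phenylalanine enzyme and differed in level, at 251 ± 34.7 CPM and 130 ± 31.6 CPM (SD, n = 6 each). The lowest cytosolic genes besides GRS2 were ALA1, the alanine enzyme, at 136 ± 57.3 CPM, FRS2, and CDC60, the leucine enzyme, at 102 ± 42.2 CPM (SD, n = 6 each). GRS2, the paralog of GRS1, stood apart from the other cytosolic genes, with 5.03 and 7.47 CPM with Decapping Pyrophosphohydrolase, 19.7 and 16.9 CPM with Cap-Clip, 21.6 and 18.9 CPM with TAP, and 6.79 and 12.4 CPM with no enzyme. That is the level of the mitochondrial group.

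Mitochondrial enzyme genes averaged from 5.62 ± 1.86 CPM for SLM5, the asparagine enzyme, to 26.5 ± 6.15 CPM for MSK1, the lysine enzyme (SD, n = 6 each). The median of all 5′ regions was 27 CPM. MST1 (threonine) and MSW1 (tryptophan) followed MSK1 at 17.7 and 17.5 CPM, while MSE1 (glutamate) at 11.6 CPM and ISM1 (isoleucine) at 9.0 ± 5.10 CPM (SD, n = 6) stood just above SLM5. Neighbours in the mitochondrial order from MST1 down to MSM1 differed by less than their SDs.

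For the 12 amino acids with a pair of listed genes, the cytosolic gene was higher in 6 of 6 enzyme-treated libraries in every pair. The median ratio of cytosolic to mitochondrial CPM was smallest for leucine, 6.64 for CDC60 over NAM2, and for phenylalanine, 8.31 for FRS2 over MSF1. NAM2 is also known for a role in splicing mitochondrial introns. It was largest for asparagine, where DED81 over SLM5 gave a median of 81.8 and a range of 73.0 to 194.3 over the 6 libraries. Serine (SES1 over DIA4) gave 61.5, glutamate (GUS1 over MSE1) 50.9 and threonine (THS1 over MST1) 48.5. Lysine, the pair with the highest mitochondrial level, gave 21.9 for KRS1 over MSK1. These ratios describe the tags and were not tested, as the genes were placed in their classes by name.

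**Figure D1:**
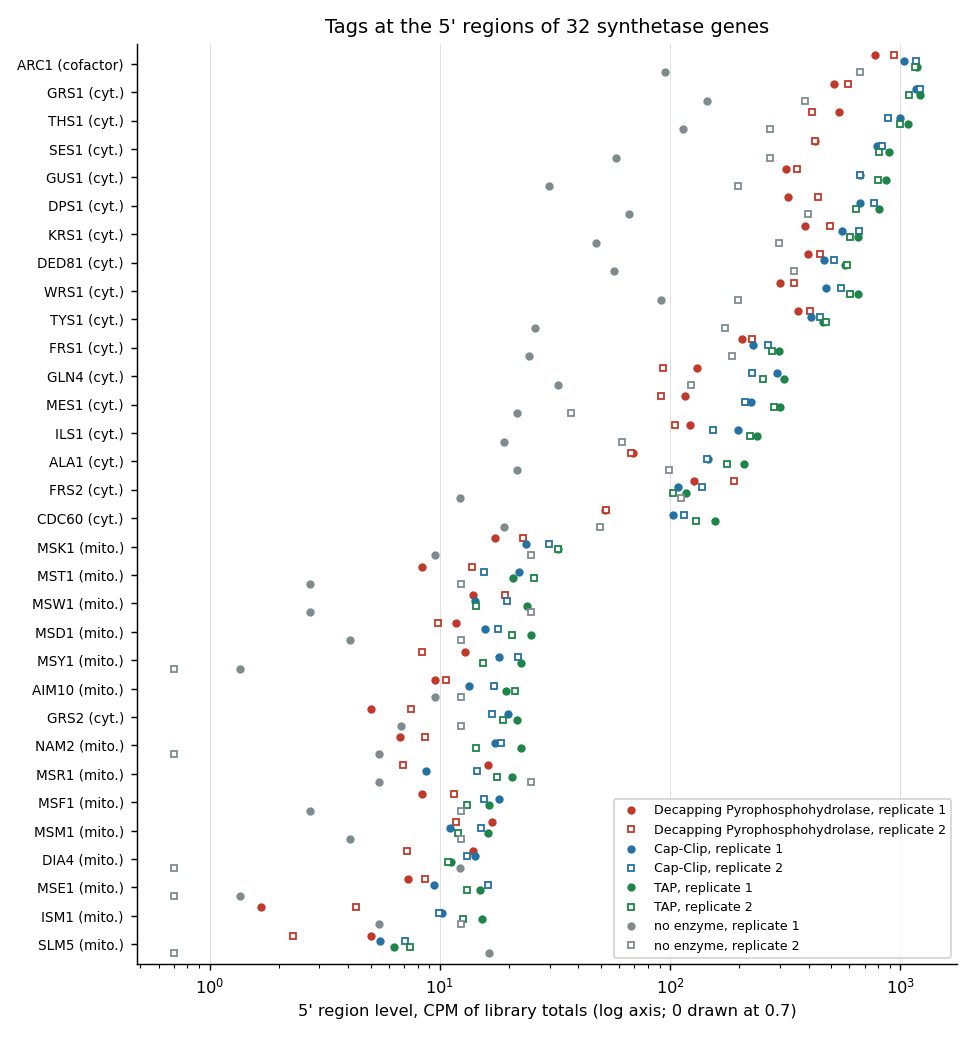
Level of each gene's 5′ region in CPM of the library total (log axis) for 32 synthetase genes, ordered by the mean over 6 enzyme-treated libraries; filled circles are replicate 1 and open squares replicate 2, with Decapping Pyrophosphohydrolase in red, Cap-Clip in blue, TAP in green and no enzyme in grey. The cytosolic genes other than GRS2 lie above 50 CPM in all 6 enzyme-treated libraries and the mitochondrial genes below 33 CPM.

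The most used start of the 32 genes lay 3 to 106 nt before the start codon, with a median of 30.5 nt. Median start positions in the TAP and Cap-Clip libraries had a median of 35.0 nt in the cytosolic and 35.0 nt in the mitochondrial genes. Over the 3831 genes with at least 20 tags in each TAP and Cap-Clip library the corresponding median was 42.5 nt, with 16.25 and 146 nt as the 1st and 9th deciles. In 14 members the same position was the most used in all 6 enzyme-treated libraries.

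TYS1 had the most focused start. Its position at 32 nt took 77.4% and 73.0% of the gene's tags with Decapping Pyrophosphohydrolase, 74.6% and 72.4% with Cap-Clip, and 73.0% and 74.2% with TAP. GUS1 was next, with 56.4% of tags at 15 nt over the 6 libraries. At the other end, DPS1 and CDC60 placed 14.7% and 14.2% of their tags at their most used positions, at 10 and 67 nt, and 5 positions were needed to reach the middle of the tags of each. GRS1 tags were spread over 218 positions, with 17.2% at the most used one.

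GRS1 and ALA1 make their mitochondrial forms from codons other than AUG upstream of the annotated start, a UUG in GRS1 and ACG codons in ALA1. The windows below show these codons in capitals.
GRS1, UUG at 69 nt, chrII:483417-483446 (-): tcaagaaaaaTTGtcgttcttcaatatcag
ALA1, ACG codons at 75 and 72 nt, chrXV:949165-949194 (-): ttaagacaagACGACGtcaactaccggatt
In ALA1, 90.3% and 91.1% of tags with Decapping Pyrophosphohydrolase, 89.7% and 92.6% with Cap-Clip, and 91.6% and 91.3% with TAP began at or before the ACG at 72 nt. In GRS1 the tags divided about evenly around the UUG. They began at or before its first base in 46.1% and 44.8% of cases with Decapping Pyrophosphohydrolase, 49.2% and 49.4% with Cap-Clip, and 48.7% and 45.9% with TAP. The most used GRS1 position, at 67 nt, is the G of this UUG, so molecules that begin there lack the complete codon.

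Short and internal starts were found in a few members. GRS2 tags centred on the start codon. Its position at 3 nt took 40.3% of tags over the 6 libraries. On average 45.3% of its TAP and Cap-Clip tags began at the first base of the start codon or farther inside, the largest such share among the members. That share includes molecules that begin on the first base itself and keep the whole start codon. They were 22.8% and 12.1% of GRS2 tags with TAP in replicates 1 and 2. The next in-frame AUG of GRS2 lies at coding position 10. MSK1 placed 92.0% of its TAP and Cap-Clip tags between 1 and 20 nt before the start codon, and 31.5% of its tags over the 6 libraries at 4 nt. More than 50% of tags fell in this 1 to 20 nt window in 5 of 32 members (15.6%), against 9.59% of 4924 genes with at least 5 tags in each TAP and Cap-Clip library. Over 10% of tags began at the first base of the start codon or farther inside in 2 of 32 members (6.25%), against 12.8% of those genes. Distant starts were seen in NAM2, where 30.9% of TAP and Cap-Clip tags began over 200 nt upstream, and in SLM5 (18.8%), MSW1 (13.6%) and DIA4 (13.4%). These 4 members with over 10% are 12.5%, near the 12.3% of the 4924 genes. The SLM5 share rests on few tags, in Cap-Clip replicate 1 on 6 at pyrimidine-purine positions and 1 at other positions.

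An AUG ahead of the annotated start was common in the leaders of mitochondrial enzymes and rare in those of cytosolic enzymes. More than 10% of TAP and Cap-Clip tags lay upstream of such an AUG in 11 of 14 mitochondrial genes and in 0 of 17 cytosolic genes, against 27.1% of the 4924 genes. Among the cytosolic genes the highest share was 7.14%, in FRS1. More than 50% of tags did so in 4 members (12.5%), all mitochondrial, against 13.1% of the 4924 genes. The 3 genes with the largest shares are shown with the AUG in capitals.
MSF1, AUG at 15 nt, chrXVI:657501-657530 (+): aaaatatctgccaATGgaggtaacttcaat
MSE1, AUG at 45 nt, chrXV:263417-263446 (+): aagcaaccgctacATGacaaaaatctaatc
MSR1, AUG at 25 nt, chrVIII:286779-286808 (-): caaaaagctttgaATGacctacctgaaagt
In MSF1, the mitochondrial phenylalanine enzyme, the AUG was included in 100% and 97.5% of tags with Decapping Pyrophosphohydrolase, 95.7% and 92.4% with Cap-Clip, and 93.2% and 91.3% with TAP. It is in frame with the coding region and 5 codons before it, with no stop between. The AUG of MSE1 is also in frame but meets a stop after 4 codons, and lay within 82.8% of the TAP and Cap-Clip tags on average. That of MSR1, the arginine enzyme, is out of frame, overlaps the start of the coding region and lay within 70.2%.

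**Figure D2:**
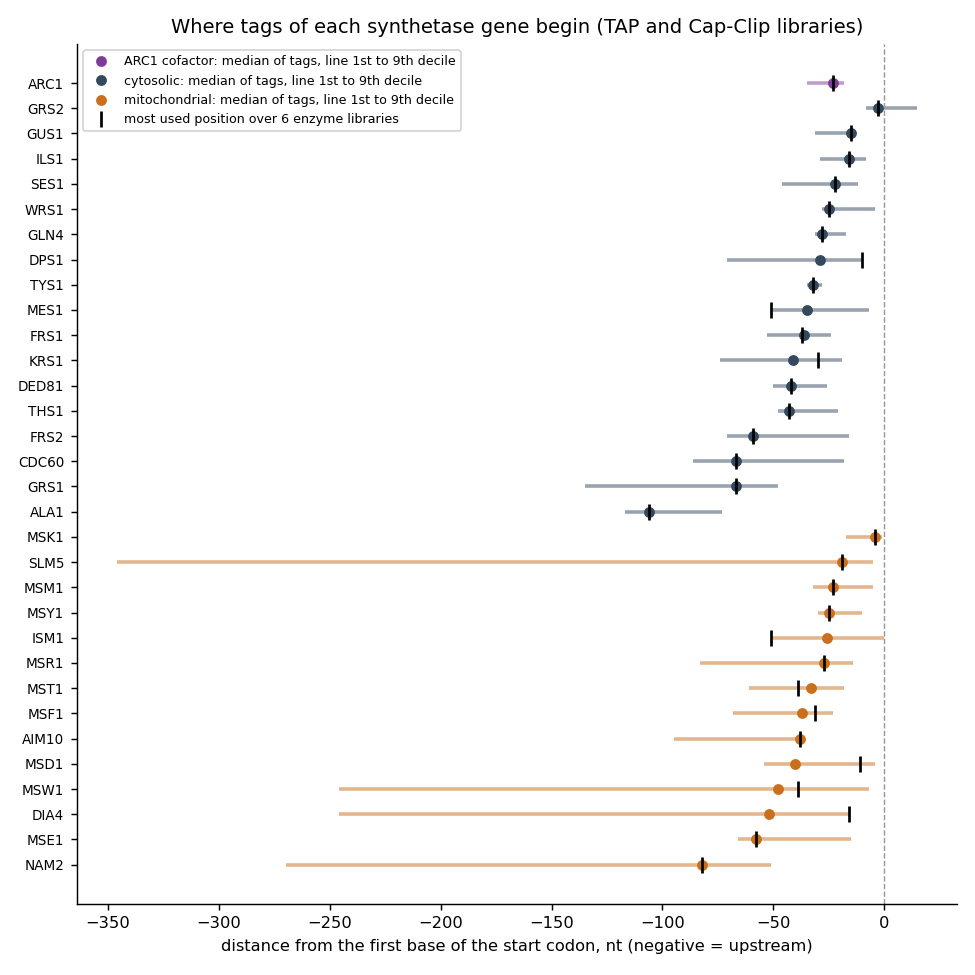
Distance of tags from the start codon in nt for the 32 genes in the TAP and Cap-Clip libraries; dots mark the median position, lines the 1st to 9th decile and black ticks the most used position over the 6 enzyme-treated libraries. ALA1 starts farthest upstream at 106 nt, GRS2 and MSK1 start within 4 nt of the start codon, and SLM5, MSW1, DIA4 and NAM2 have long upstream tails.

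Against no enzyme, TAP raised the 5′ region tags of 22 of 32 members and lowered those of 0, where 70.4% of the 4964 regions tested were higher and 1.23% lower (edgeR quasi-likelihood test, Benjamini-Hochberg adjusted p under 0.05, library totals as scale). The share of members called was therefore near that of all regions. The median log2 fold change was 2.02 over the members and 2.09 over all regions. With Cap-Clip 19 members were higher, against 64.0% of all regions, and 0 were lower, against 1.31%, with medians of 1.85 and 1.98. With Decapping Pyrophosphohydrolase 5 members were higher, against 31.7% of all regions, and 1 was lower, against 1.69%; the medians were 1.24 and 1.38. These sizes hold at library totals. With TMM the medians of all regions were 3.44 with Decapping Pyrophosphohydrolase, 3.87 with Cap-Clip and 3.99 with TAP.

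MES1, the methionine enzyme, had the largest gain with TAP and with Cap-Clip apart from MSY1 and MSE1. Its no-enzyme baseline rests on few tags, 4 and 3 at pyrimidine-purine positions and 12 and 0 at other positions in replicates 1 and 2. It had 116 and 91.1 CPM with Decapping Pyrophosphohydrolase, 225 and 211 CPM with Cap-Clip, 299.9 and 284 CPM with TAP, and 21.7 and 37.2 CPM with no enzyme. The log2 fold change of MES1 was 3.53 ± 0.75 with TAP (SE; edgeR adjusted p = 0.000162), 3.11 ± 0.74 with Cap-Clip (edgeR adjusted p = 0.000625) and 2.03 ± 0.74 with Decapping Pyrophosphohydrolase (edgeR adjusted p = 0.0195). GUS1 rose by 3.10 ± 0.95 and ILS1, the isoleucine enzyme, by 2.98 ± 0.74 with TAP on the same scale (SE; edgeR adjusted p = 0.00485 and 0.000812). ARC1, the member with the highest mean level, was not called with any enzyme, at 1.68 ± 0.95 with TAP (SE; edgeR adjusted p = 0.101). Its no-enzyme level was 95.1 CPM in replicate 1 and 669 CPM in replicate 2.

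Besides MES1 and ILS1, Decapping Pyrophosphohydrolase raised TYS1, FRS2 and MSY1, the mitochondrial tyrosine enzyme. MSY1 and MSE1 had 1 tag each over the no-enzyme libraries, so their gains have wide counting intervals. For MSY1 the ratio of pooled CPM to no enzyme was 8.06 (95% exact interval 1.38 to 324.5) with Decapping Pyrophosphohydrolase, 17.4 with Cap-Clip and 17.5 (3.12 to 695) with TAP. These Clopper-Pearson intervals, like all others here, cover counting error only. SLM5 was the lower member, at 9 and 8 tags with Decapping Pyrophosphohydrolase and 12 and 0 tags with no enzyme, a log2 fold change of -2.10 (edgeR adjusted p = 0.00992) that rests on no-enzyme replicate 1.

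These counts depended on single libraries. Without no-enzyme replicate 1, which has the low share of tags in 5′ regions, the members called numbered 0 with Decapping Pyrophosphohydrolase, 8 with Cap-Clip and 11 with TAP. Without no-enzyme replicate 2 Decapping Pyrophosphohydrolase had 23 higher and 1 lower. Leaving out replicate 1 or 2 of the enzyme gave 2 and 1 calls with Decapping Pyrophosphohydrolase, 7 and 7 with Cap-Clip, and 7 and 13 with TAP. With the replicate number as a block, which pairs aliquots of a culture, MSK1 (edgeR adjusted p = 0.0712) and GRS2 (0.072) were no longer called with TAP, nor MSD1 (0.0596), the mitochondrial aspartate enzyme, with Cap-Clip.

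The bodies of the genes, the coding region past its first 50 nt, went the other way. All 24 members with a testable body were lower with each of the 3 enzymes than with no enzyme, as were 96.2% of 4317 bodies with Decapping Pyrophosphohydrolase, 96.3% with Cap-Clip and 96.2% with TAP (edgeR). The median log2 fold change of the member bodies was -3.26 with Decapping Pyrophosphohydrolase, -3.74 with Cap-Clip and -3.84 with TAP, against -3.63, -3.76 and -3.90 over all bodies. None of the 24 was higher, where 0.301%, 0.556% and 0.579% of all bodies were with these enzymes in the same order. With TMM the medians of all bodies were -1.37 with Decapping Pyrophosphohydrolase, -1.84 with Cap-Clip and -2.03 with TAP. Without no-enzyme replicate 1 the Decapping Pyrophosphohydrolase count was 15.

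No difference between Cap-Clip and TAP passed the threshold at these genes. In edgeR's test 0 of 32 5′ regions differed between Cap-Clip and TAP, 5 had an unadjusted p under 0.05 and DESeq2 called 0; of all 5036 regions tested 0.0397% were called, 0.0199% higher and 0.0199% lower. The median log2 fold change was -0.13 over the members and -0.07 over all regions. Of 22 member bodies 0 were called (4 at unadjusted p under 0.05), and of 300 start sites 0 were called (19 at unadjusted p under 0.05), where 0.00718% of all 27858 sites were called. The mean start position differed in 0 of 20 genes (limma; 0 at unadjusted p under 0.05). Among the 5′ regions the most negative and most positive fold changes were those of MSR1, -0.54 ± 0.25, and DIA4, 0.31 ± 0.25 (SE; edgeR adjusted p = 0.48 and 0.734).

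Decapping Pyrophosphohydrolase recovered fewer tags than TAP from many synthetase 5′ regions, as it did from many 5′ regions of all genes. In edgeR's test on the 6 enzyme-treated libraries with TMM scaling, 15 of 32 members were lower, against 40.5% of all 5036 regions, and 1 was higher, against 12.2%. The share of members called lower was near that of all regions. The median log2 fold change was -0.56 over the members and -0.37 over all regions. Of the cytosolic genes 12 of 17 were lower, and of the mitochondrial genes 3 of 14, with median log2 fold changes of -0.65 and -0.50. The mitochondrial genes held far fewer tags, so these counts do not compare the classes. Against Cap-Clip 13 members were lower (31.9% of all regions) and 1 was higher (9.81%), with medians of -0.34 and -0.30. Both comparisons use the same Decapping Pyrophosphohydrolase libraries.

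The lower members were led by ISM1, the mitochondrial isoleucine enzyme, with 1.68 and 4.31 CPM with Decapping Pyrophosphohydrolase, 10.2 and 9.91 CPM with Cap-Clip, and 15.3 and 12.6 CPM with TAP. The groups do not overlap, and the Decapping Pyrophosphohydrolase values rest on 3 and 15 tags. Its log2 fold change was -1.67 ± 0.35 against TAP (SE; edgeR adjusted p = 0.000406) and -1.17 against Cap-Clip (edgeR adjusted p = 0.0183). Without Cap-Clip replicate 2 or Decapping Pyrophosphohydrolase replicate 1 the call against Cap-Clip was lost (edgeR adjusted p = 0.0965 and 0.0844). GRS2, whose levels are given above, fell by 1.24 ± 0.28 on the log2 scale against TAP (SE; edgeR adjusted p = 0.000909) and by 1.04 against Cap-Clip.

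ALA1 had 69.3 and 67.5 CPM with Decapping Pyrophosphohydrolase, 146 and 145 CPM with Cap-Clip, and 210 and 177 CPM with TAP. The log2 fold change against TAP was -1.12 ± 0.16 for ALA1 (SE; edgeR adjusted p = 6.22e-06), -1.13 ± 0.17 for MES1 (1.16e-05) and -1.07 ± 0.16 for CDC60 (1.04e-05). GLN4, the glutamine enzyme, was at -0.97, GUS1 and NAM2 were at -0.92 each, and GRS1, THS1, ILS1, SES1, WRS1, DPS1 and MSD1 lay between -0.74 and -0.54. ARC1 differed by -0.07 ± 0.19 (SE; edgeR adjusted p = 0.787), so its lower CPM did not pass the test after TMM scaling. KRS1, DED81, FRS1 and TYS1 were also not called, at -0.13, -0.08, -0.01 and 0.09.

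FRS2, the alpha subunit of the phenylalanine enzyme, was the member that rose. It had 127 and 190 CPM with Decapping Pyrophosphohydrolase, 109 and 137 CPM with Cap-Clip, and 117 and 103 CPM with TAP. The CPM values with Decapping Pyrophosphohydrolase lie above those with TAP but overlap those with Cap-Clip. The log2 fold change was 0.93 ± 0.17 against TAP and 0.70 ± 0.18 against Cap-Clip (SE; edgeR adjusted p = 0.000146 and 0.0032). The call against Cap-Clip was lost with library totals as the scale, at 0.36 (edgeR adjusted p = 0.169), and without Decapping Pyrophosphohydrolase replicate 2, at 0.35 (edgeR adjusted p = 0.103). FRS1, the beta subunit of the same enzyme, had 206 and 228 CPM with Decapping Pyrophosphohydrolase, 229 and 267 CPM with Cap-Clip, and 297 and 276 CPM with TAP. Pyrimidine-purine positions of FRS2 held 116 and 173 CPM with Decapping Pyrophosphohydrolase, 104 and 130 CPM with Cap-Clip, and 110 and 94.4 CPM with TAP. Its other positions held 10.6 and 17 CPM with Decapping Pyrophosphohydrolase, 4.73 and 6.73 CPM with Cap-Clip, and 7.26 and 8.59 CPM with TAP. Of 13 tested FRS2 sites 9 were higher against TAP, the most of any member, and 4 against Cap-Clip, where ARC1 and GRS1 had 5 each.

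The scale matters for these directions. With library totals in place of TMM the median of all regions moved to -0.77 against TAP and to -0.65 against Cap-Clip, and 25 members were lower and 1 higher against TAP. Leaving out TAP replicate 1, the deepest library, left 9 lower and 1 higher. AIM10, the mitochondrial proline enzyme, was called lower against TAP with the replicate block (edgeR adjusted p = 0.0455 in place of 0.0795).

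**Figure D3:**
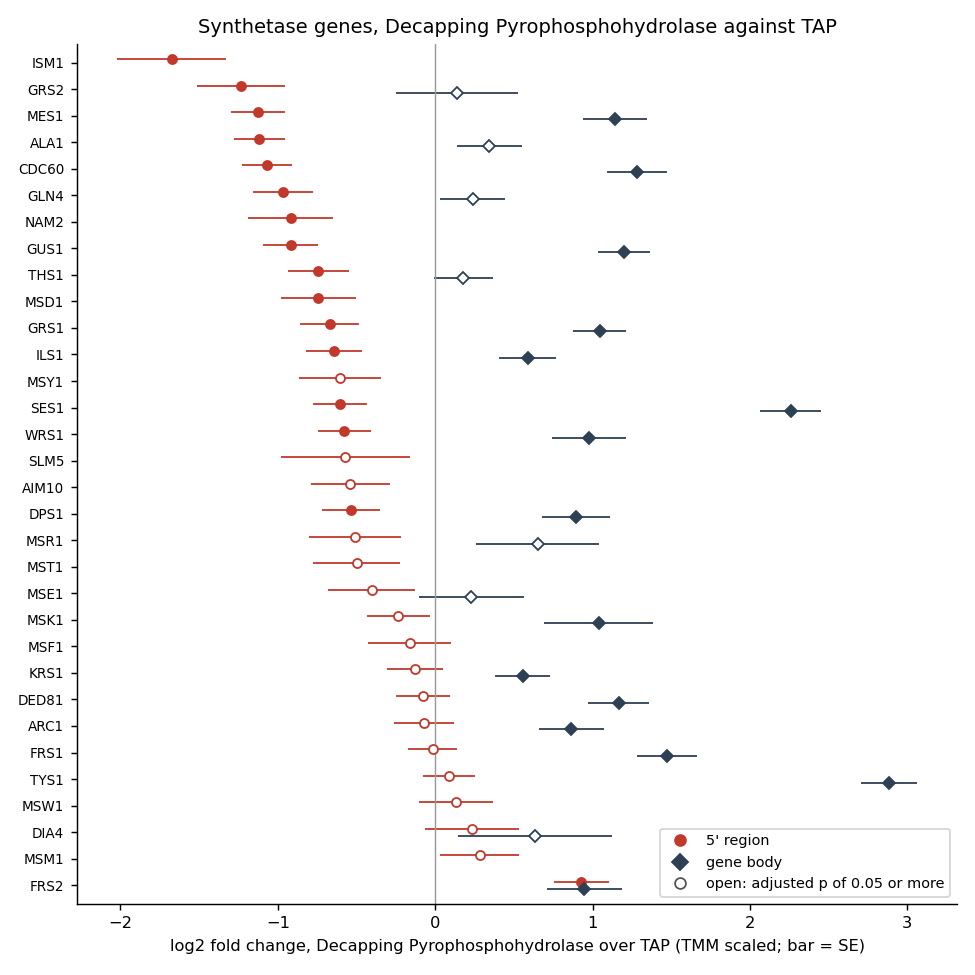
Log2 fold change of Decapping Pyrophosphohydrolase over TAP for the 5′ region (red circles) and the gene body (dark diamonds) of each synthetase gene, TMM scaled, with bars of 1 SE; open symbols did not pass an adjusted p of 0.05. FRS2 is the region called higher, 15 regions are called lower, and all 22 tested bodies lie right of 0.

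Single start sites differed in both directions. Of 300 tested sites in 27 members, 36 were higher and 126 lower with Decapping Pyrophosphohydrolase than with TAP, where 39.9% of all sites were called, 19.1% higher and 20.8% lower (edgeR). Against Cap-Clip 33 were higher and 85 lower, where 16.9% and 16.5% of all sites were. DESeq2 called fewer and divided them more evenly, 30 higher and 28 lower against TAP and 27 higher and 21 lower against Cap-Clip. Without TAP replicate 1 there were 21 higher and 53 lower sites against TAP, and without Decapping Pyrophosphohydrolase replicate 2 there were 19 and 82. Against Cap-Clip the counts were 19 higher and 43 lower without Cap-Clip replicate 2, and 19 and 57 without Decapping Pyrophosphohydrolase replicate 2.

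The sites that rose most had T as the second base. Against TAP 22 sites rose by over 3 on the log2 scale, and of these 22 had T at the second base, 16 had T at the first base and 0 followed a pyrimidine-purine step. Of the 1606 sites of all genes past the same size 81.5% had T second and 60.5% T first, whereas of the sites of all genes that were not called 25.4% had T second and 0.853% T first. A site could be tested on the tags of any enzyme, and sites that passed through the Decapping Pyrophosphohydrolase libraries alone had to be higher there. Of the 33 member sites on another step with T as second base, 20 had under 20 tags over the 4 TAP and Cap-Clip libraries, 2 of them 0. The median of those 33 was 4.34, and that of the 13 sites with at least 20 such tags was 0.11. The 216 sites on a pyrimidine-purine step had a median of -0.66, with 0 sites under that count, and the remaining 51 sites a median of -0.77, with 1 under it.

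The T of ARC1 at 12 nt, in the first sequence of the second group above, had 74 and 172 tags with Decapping Pyrophosphohydrolase, 0 and 4 with Cap-Clip, 2 and 0 with TAP, and 2 and 3 with no enzyme. Pooled over libraries it was 114 times as frequent as with Cap-Clip (95% exact interval 43.9 to 420.8) and 291 times as frequent as with TAP (79.8 to 2420). The KRS1 site at 12 nt had 30 and 101 tags with Decapping Pyrophosphohydrolase, 0 and 3 with Cap-Clip, 1 and 0 with TAP, and 2 and 2 with no enzyme. Its ratio was 80.8 (27 to 396.6) to Cap-Clip and 310.5 (54.8 to 12355) to TAP. Both sites, like those of THS1 and DPS1 below, were chosen as sites called higher with Decapping Pyrophosphohydrolase. The direction of their ratios and intervals follows from that choice, so these values describe the sites and are not a test.

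THS1 had 2 such positions side by side. At 34 nt it had 61 and 123 tags with Decapping Pyrophosphohydrolase, 2 and 1 with Cap-Clip, 3 and 1 with TAP, and 7 and 4 with no enzyme. At 35 nt it had 86 and 155 tags with Decapping Pyrophosphohydrolase, 1 and 1 with Cap-Clip, 5 and 3 with TAP, and 10 and 1 with no enzyme. The ratios to TAP were 109 (41.9 to 404.3) and 71.4 (35.7 to 167.3). The DPS1 site at 9 nt differed less, with 27 and 77 tags with Decapping Pyrophosphohydrolase, 1 and 14 with Cap-Clip, and 15 and 1 with TAP, a ratio to TAP of 15.4 (9.05 to 27.9).

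The GRS1 positions at 70 and 69 nt, named after their values were seen, adjoin the UUG codon shown above. At 69 nt, the first T of the UUG, there were 11 and 25 tags with Decapping Pyrophosphohydrolase, 0 and 1 with Cap-Clip and 2 and 1 with TAP. At 70 nt there were 17 and 41 tags with Decapping Pyrophosphohydrolase, 0 and 1 with Cap-Clip and 3 and 0 with TAP. The main GRS1 site at 67 nt, a pyrimidine-purine step, had 167 and 375 tags with Decapping Pyrophosphohydrolase, 233 and 1591 with Cap-Clip and 2229 and 353 with TAP.

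In all, 21 sites of 10 members were called and over 3 on the log2 scale against both TAP and Cap-Clip, and were chosen by those values. They held 5.40% (95% exact interval 4.96 to 5.88) and 5.50% (5.19 to 5.83) of member tags with Decapping Pyrophosphohydrolase, 0.0990% and 0.0627% with Cap-Clip, and 0.0686% and 0.0665% with TAP. The no-enzyme libraries took no part in the choice. They held 4.62% (3.20 to 6.43) and 5.52% (3.30 to 8.59) of member tags at these sites, on 33 and 18 tags. In CPM the sites summed to 288 and 322 with Decapping Pyrophosphohydrolase, 8.67 and 5.78 with Cap-Clip, 7.08 and 6.30 with TAP, and 44.8 and 223 with no enzyme.

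**Figure D4:**
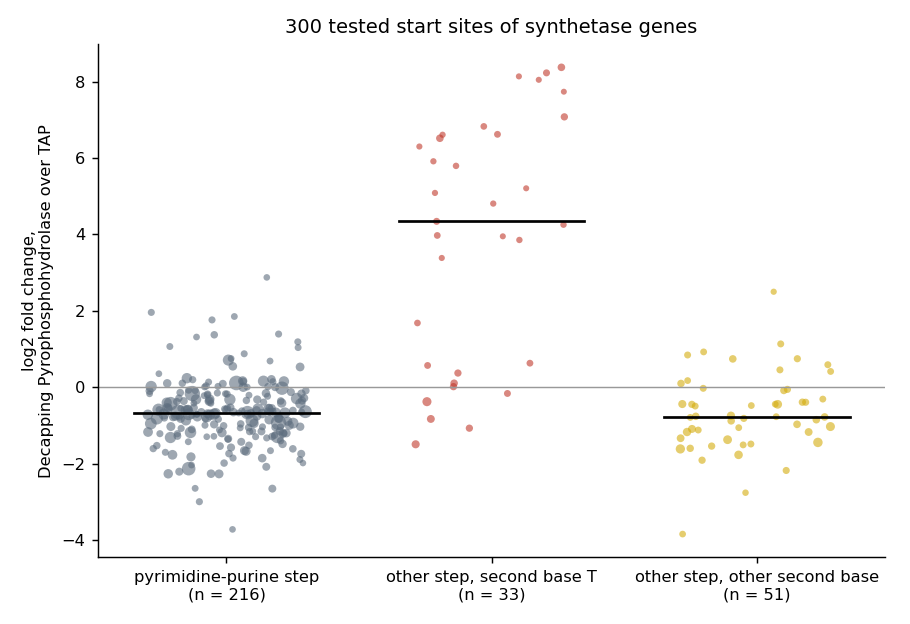
Log2 fold change of Decapping Pyrophosphohydrolase over TAP at 300 tested start sites of synthetase genes, grouped by whether the site follows a pyrimidine-purine step and, if not, whether its second base is T; dot size grows with the mean tag count and the black bar is the median. The medians are -0.66, 4.34 and -0.77 from left to right; 20 of the 33 sites in the middle group had under 20 tags over the TAP and Cap-Clip libraries, and the other 13 had a median of 0.11.

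Pooled over the 32 genes, 7.17 ± 1.23% of 5′ tags began with T with Decapping Pyrophosphohydrolase, 1.09 ± 0.19% with Cap-Clip and 1.13 ± 0.08% with TAP (SD, n = 2 each). With no enzyme it was 18.2% in replicate 1 and 8.28% in replicate 2. Over all 5′ regions T began 5.75% of tags with Decapping Pyrophosphohydrolase, 0.964% with Cap-Clip and 0.943% with TAP. Pyrimidine-purine steps held 82.5 ± 1.86%, 90.1 ± 0.64% and 90.0 ± 0.76% in the order Decapping Pyrophosphohydrolase, Cap-Clip and TAP (SD, n = 2 each). The 2-sided exact permutation p was 0.333 for Decapping Pyrophosphohydrolase against either enzyme, the smallest that 2 libraries against 2 can give, and 0.667 for the pyrimidine-purine share of Cap-Clip against TAP. With no enzyme the pyrimidine-purine share was 41.9% in replicate 1 and 78.2% in replicate 2.

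Sites that were lower with Decapping Pyrophosphohydrolase included the main start of THS1. At 43 nt THS1 had 115 and 124 tags with Decapping Pyrophosphohydrolase, 352 and 2102 with Cap-Clip, and 3174 and 452 with TAP. Those counts were 11.9% and 8.63% of the gene's tags with Decapping Pyrophosphohydrolase, 27.9% and 28.0% with Cap-Clip, and 27.4% and 25.8% with TAP. The log2 fold change was -2.13 ± 0.25 against TAP and -2.11 against Cap-Clip (SE; edgeR adjusted p = 2.01e-08 and 3.48e-08). With Decapping Pyrophosphohydrolase the position at 48 nt took the place of 43 nt as the most used one of THS1, with 156 and 224 tags.

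The called sites with the largest decreases against TAP and at least 20 tags on average were KRS1 at 59 nt, CDC60 at 57 nt, ALA1 at 117 nt, DPS1 at 84 nt and MES1 at 43 nt. KRS1 at 59 nt had 0 and 3 tags with Decapping Pyrophosphohydrolase, 5 and 64 with Cap-Clip, and 71 and 9 with TAP. ALA1 at 117 nt had 11 and 17 tags with Decapping Pyrophosphohydrolase, 39 and 204 with Cap-Clip, and 396 and 52 with TAP, a log2 fold change of -2.26 ± 0.29 (SE; edgeR adjusted p = 1.14e-07). All 7 tested sites of ALA1 were lower against TAP, but they did not fall alike. The main site at 106 nt was at -0.72 and took 49.2% and 53.2% of the gene's tags with Decapping Pyrophosphohydrolase, 37.8% and 39.8% with Cap-Clip, and 37.8% and 40.5% with TAP.

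The main sites of several other abundant members were not called. TYS1 had 0 of 9 sites called against TAP, and its main site at 32 nt differed by 0.11 ± 0.23 (SE; edgeR adjusted p = 0.714). The main sites of ARC1, DED81 and KRS1 were not called either, at -0.16, -0.02 and 0.02. At ARC1 the position at 65 nt rose by 0.71 ± 0.21 (SE; edgeR adjusted p = 0.0068) and took 11.5% and 11.9% of tags with Decapping Pyrophosphohydrolase, 5.18% and 7.18% with Cap-Clip, and 6.91% and 6.87% with TAP. The mean start position moved past the threshold in 0 of 20 genes with limma in either comparison, where 1.07% of 3462 genes were called against TAP (0.404% farther from the start codon, 0.664% closer) and 0.953% against Cap-Clip. Of the 20, 5 had an unadjusted p under 0.05 in each. DPS1 came nearest, with tags on average 4.15 ± 0.64 nt closer to the start codon against TAP (SE; limma adjusted p = 0.0818). With at least 50 tags in every library as the minimum, DPS1 passed (limma adjusted p = 0.0317).

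**Figure D5:**
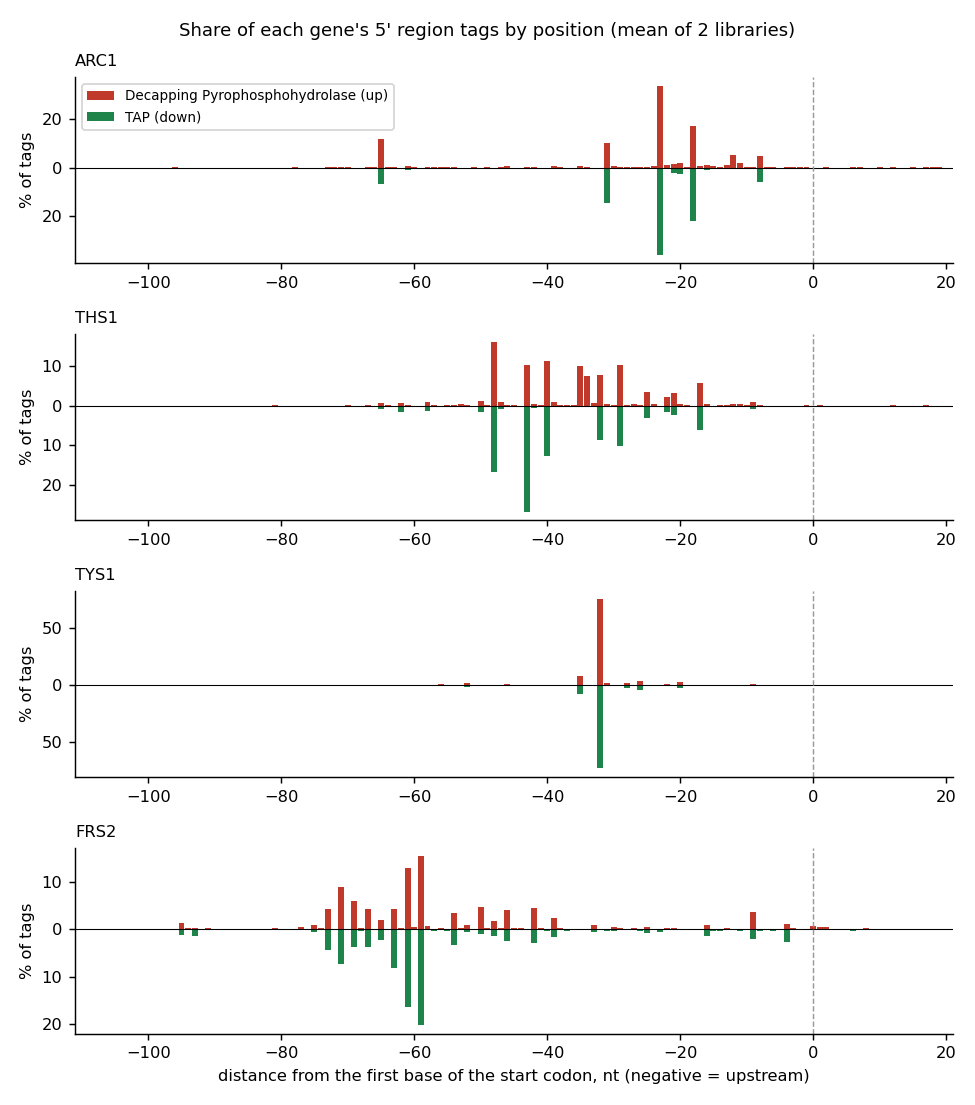
Share of a gene's 5′ region tags at each position from 110 nt before to 20 nt after the start codon, as the mean of 2 libraries, with Decapping Pyrophosphohydrolase drawn upward and TAP downward, for ARC1, THS1, TYS1 and FRS2. Bars at 12 nt in ARC1 and at 34 and 35 nt in THS1 appear upward only, the THS1 bar at 43 nt is shorter upward, and TYS1 has the same dominant bar at 32 nt in both directions.

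The members' gene bodies held a larger share of tags with Decapping Pyrophosphohydrolase than with the other enzymes, a comparison added after the data were seen. Of the member tags in 5′ regions and bodies, 14.6% and 13.6% lay in bodies with Decapping Pyrophosphohydrolase, 5.52% and 7.34% with Cap-Clip, 5.54% and 6.0% with TAP, and 92.5% and 48.0% with no enzyme. The bodies of all genes held 6.74% and 6.75% of the library's tags with Decapping Pyrophosphohydrolase, 4.93% and 6.06% with Cap-Clip, and 5.43% and 4.94% with TAP. With no enzyme they held 79.2% and 24.0%. These shares are of all tags of a library, also those outside 5′ regions and bodies, so their totals are unlike those of the member shares. In edgeR's test 15 of 22 bodies were higher against TAP, where 38.4% of 3867 bodies were, and 14 of 22 against Cap-Clip, where 24.9% were. None was lower, where 1.14% of all bodies were against TAP and 0.931% against Cap-Clip. The 22 bodies were those of 17 cytosolic genes, ARC1 and 4 mitochondrial genes. Apart from GRS2, the cytosolic genes and ARC1 ranked 166 to 1299 among the 6002 genes by 5′ region level. Bodies of like level were not compared, so these counts do not set synthetase bodies apart from those of other abundant genes. The median log2 fold change against TAP was 0.92 over the member bodies and 0.57 over all bodies. At library totals the median over all bodies was 0.14 against TAP and 0.02 against Cap-Clip. With library totals as the scale the counts were 8 and 6, and without TAP replicate 1 the count against TAP was 9. KRS1 was called against Cap-Clip with the replicate block (edgeR adjusted p = 0.00862 in place of 0.0527).

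TYS1, whose 5′ region was not called against TAP after TMM scaling, had the largest gain in its body. The body held 106 and 110 CPM with Decapping Pyrophosphohydrolase, 18.1 and 28.9 CPM with Cap-Clip, 20.6 and 17.2 CPM with TAP, and 486 and 211 CPM with no enzyme. The log2 fold change against TAP was 2.89 ± 0.18 for TYS1 (SE; edgeR adjusted p = 3.09e-11), 2.26 ± 0.20 for SES1 (6.66e-09), 1.47 ± 0.19 for FRS1 (1.81e-06), 1.28 ± 0.19 for CDC60 (1.09e-05) and 1.20 ± 0.16 for GUS1 (3.16e-06).

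Few positions carried the gain in TYS1 and CDC60. The windows show 2 body positions, chosen after their values were seen, with the base before, the first and the second base in capitals. Coding positions count from 1 at the first base of the start codon.
TYS1, coding position 584, chrVII:866927-866956 (-): ggtgtcgaccagagaaaaATTtttgtctta
CDC60, coding position 2302, chrXVI:249272-249301 (+): tactgttgaagatgcaaaTTTtgacgaatc
TYS1 at 584 had 66 and 148 tags with Decapping Pyrophosphohydrolase, 3 and 1 with Cap-Clip, 3 and 2 with TAP, and 27 and 2 with no enzyme. CDC60 at 2302 had 33 and 39 tags with Decapping Pyrophosphohydrolase, 0 and 0 with Cap-Clip, 1 and 0 with TAP, and 0 and 3 with no enzyme.

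The body positions described were picked by their Decapping Pyrophosphohydrolase tags, at least 20, which favours an excess with that enzyme, so they are a description only. Of 11 such positions 10 in 6 members were over 8 times the mean CPM of the TAP and Cap-Clip libraries, and these 10 had T as the second base. In TYS1 4 of these positions, between 583 and 591, held 70.0% and 67.9% of the body's tags with Decapping Pyrophosphohydrolase, 13% and 4.49% with Cap-Clip, 7.69% and 13.3% with TAP, and 27.4% and 35.3% with no enzyme. In CDC60 2 positions, 2301 and 2302, held 37.2% and 32.8% with Decapping Pyrophosphohydrolase, 0% and 0% with Cap-Clip, 0.282% and 0% with TAP, and 0% and 13.6% with no enzyme. Over all tags of member bodies, with no choice of positions, T stood at the first and the second base of 33.2% and 30.7% of tags with Decapping Pyrophosphohydrolase, 10.3% and 9.05% with Cap-Clip, 7.67% and 8.62% with TAP, and 8.42% and 13% with no enzyme.

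Gcn4, the activator of amino acid biosynthesis genes, binds sites with the core TGACTC. Within 300 nt before the start codon and on either strand this core occurred in 7 of 32 members (21.9%), against 7.76% of the 6002 genes. They were 5 of 17 cytosolic genes (ALA1, DED81, ILS1, KRS1 and THS1), 1 of 14 mitochondrial genes (MSW1) and ARC1. The windows show it in capitals for 3 genes in which it lies upstream of the main start.
ILS1, 102 to 97 nt, chrII:84346-84375 (-): tcgaaacaatgaTGACTCttaagcatgaaa
KRS1, 134 to 129 nt, chrIV:525294-525323 (+): tgaatgatgaaaTGACTCttaatgaacttc
THS1, 204 to 199 nt, chrIX:212283-212312 (+): ttactgtttaaaTGACTCttaccttgtgat
In ALA1 the match, at 47 to 42 nt, and in ARC1 the match, at 6 to 1 nt, lie downstream of the main start at 106 and 23 nt. TATAAA occurred in 18 of 32 members (56.3%), against 48.2% of all genes, and GATGAG, the core of the PAC element of ribosome biogenesis genes, in 4 (12.5%), against 19.1%.

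Of 17 other genes of tRNA charging and its use, 2 were higher and 12 lower with Decapping Pyrophosphohydrolase than with TAP (edgeR), where 12.2% and 40.5% of all regions were. Against Cap-Clip 1 was higher and 7 lower, where 9.81% and 31.9% of all regions were. The lower ones included GCN2, the kinase that senses uncharged tRNA, at -1.50 ± 0.29, and LOS1, a tRNA exporter, at -1.38 ± 0.21 against TAP (SE; edgeR adjusted p = 0.000183 and 1.07e-05). The higher ones against TAP were TEF1 and TEF2, translation elongation factor genes that are near-identical copies, so their tags are uncertain. HTS1, the histidine enzyme, was the higher one against Cap-Clip, at 0.41 ± 0.16 (SE; edgeR adjusted p = 0.0441). Against no enzyme, 5 of the 17 were higher with Decapping Pyrophosphohydrolase, 11 with Cap-Clip and 14 with TAP, where 31.7%, 64.0% and 70.4% of all regions were, and 0 were lower.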

How the data were processed

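The deposited table holds counts of 5′ ends, whole numbers per genome position and strand, with 1 column for each of 8 libraries. Per the labels' protocols, 60 µg of total RNA was dephosphorylated and split in 4, decapped, joined to an oligonucleotide that carries 8 random nt, selected for poly(A), reverse transcribed from random primers and sequenced for 50 nt. Per the submitters' processing notes the authors aligned reads with Novoalign to R64 (sacCer3); its version, and whether reads with equal barcodes were collapsed, are not given in the sources used here. Reads without such collapsing are not independent molecules.

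Positions were read as 1-based, since 89.8% of TAP and Cap-Clip tags then follow a pyrimidine-purine step, against 3.73% and 1.19% at the neighbouring offsets. Regions were tested together with gene bodies and noncoding genes in R 4.3.3. Enzymes were compared with no enzyme over 8 libraries at library totals, and with each other over 6 libraries with TMM, by the quasi-likelihood test of edgeR 4.0.16 after filterByExpr, with Benjamini-Hochberg adjustment over all features tested, 2-sided, threshold 0.05. Single positions used the same test, and mean start positions limma 3.58.1 on genes with at least 20 tags in each library. The fits were tested on simulated data. The alternatives were DESeq2 1.42.0, other scalings and filters, 200 nt upstream, a replicate block and leaving out each library. Body comparisons between enzymes were added after the data were seen.

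Chi-square tests of the counts of replicates gave 11.2 to 14 per degree of freedom, so the replicates are distinct libraries. Same-numbered libraries are aliquots of 1 culture per the design text; deviations of same-numbered libraries from their group means correlated between -0.0863 and 0.0961. The members and lists were chosen with earlier results of these data known. Full statistics were given for the 5 higher and 5 lower called members with the largest change in each comparison, the 3 most and 3 least abundant of each class, partners of 1 amino acid, GRS1, GRS2, ALA1 and ARC1. Sites named were the most used one of each member and up to 5 called sites in each comparison with a mean of at least 20 tags; other sites were chosen after their values were seen.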

Additional observations from a re-analysis of the deposited data

How the results depend on the processing

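Depth limits the mitochondrial genes, whose no-enzyme counts were 0 to 12 tags. Counts of calls moved by over 1.5 times as follows. Against no enzyme, DESeq2 called 29 regions with Decapping Pyrophosphohydrolase (29 higher) and 31 with Cap-Clip, and TMM 19 with Decapping Pyrophosphohydrolase. Between enzymes, a fit over all 8 libraries called 5 regions against TAP, and 2 regions and 9 bodies against Cap-Clip; library totals called 26 regions and 8 bodies against TAP and 6 bodies against Cap-Clip; DESeq2 called 58 sites against TAP and 48 against Cap-Clip. Mean start position had 2 calls against TAP and 2 against Cap-Clip, with at least 50 tags and also with median distance. The pyrimidine-purine share of Cap-Clip minus TAP was -0.68 points as a mean over members. The cause of these moves was not tested.

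Leaving out 1 library in turn gave 0 to 24 regions and 15 to 32 bodies with Decapping Pyrophosphohydrolase against no enzyme, 7 to 28 and 17 to 32 with Cap-Clip, and 7 to 30 and 17 to 32 with TAP. Decapping Pyrophosphohydrolase against TAP gave 10 to 17 regions, 9 to 15 bodies and 74 to 162 sites, and against Cap-Clip 10 to 12, 11 to 13 and 62 to 121. The pyrimidine-purine difference lay between -8.80 and -6.16 points against TAP, between -8.99 and -6.35 against Cap-Clip, and between -0.349 and 0.723 for Cap-Clip against TAP. SLM5 against no enzyme with Decapping Pyrophosphohydrolase turned to 6.17 with 200 nt upstream, 0.19 with DESeq2, 0.27 with TMM and 6.70 without no-enzyme replicate 1 (leaving out a library otherwise gave as little as -2.61), and the MSK1 body with Cap-Clip to 7.09 without that library (otherwise as little as -4.67); none of these 5 passed the threshold. The replicate block gave 20, 18 and 6 regions with TAP, Cap-Clip and Decapping Pyrophosphohydrolase against no enzyme, 17 and 14 regions and 155 and 135 sites for Decapping Pyrophosphohydrolase against TAP and Cap-Clip, and changed no call of a region or body other than those named. Under settings other than leaving out a library, 336 values of single genes and sites kept direction and side of the threshold, 13 lost the call and 2 gained it.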

Other observations

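Within the pyrimidine-purine sites that begin with A, the median log2 fold change of Decapping Pyrophosphohydrolase against TAP ran from -1.21 where the second base was C (19 sites) over -0.76 for A (64 sites) and -0.62 for G (23 sites) to -0.32 for T (49 sites). Over all genes' sites of this kind the medians were -0.44, -0.40, -0.20 and -0.19. Pyrimidine-purine sites that begin with G did not follow this order. Their member medians were -0.68 for C (6 sites), -0.73 for A (24 sites), -0.62 for G (8 sites) and -0.71 for T (23 sites). Over all genes' sites that begin with G they were -0.35, -0.33, -0.37 and -0.38. No test was made between these groups of sites, and sites of a gene share its tags.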
